A study of Mus musculus with 12 samples.

Results

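The 10 genes described here mark the transporting epithelium of the choroid plexus, and they were followed through RNA-seq of mouse brain: Ttr, Folr1, Kl, Aqp1, Clic6, Otx2, Kcnj13, Kcne2, Slc4a5 and Cldn2. They are 10 of the 21956 genes in the table. They were selected on these same data, from the counts of the single libraries, because they stood far apart between the groups. Their levels and differences are therefore given as a description, and no p-value is given for any of them. The 12 libraries, 3 in each of 4 groups, were made from brain tissue. After hemorrhage the tissue lay within 1 to 2 mm of the hematoma and was cut in 1-mm slices. Sham tissue was taken by the same procedure without the injury, and its position is not otherwise stated. There were 2 genotypes. Fabp4CKO mice carried a floxed Fabp4 gene and a tamoxifen-inducible Cre recombinase driven from the Tmem119 gene, which is active in microglia, and Fabp4flox/flox mice carried the floxed gene without the recombinase. Intracerebral hemorrhage (ICH) was produced by collagenase injected into the right striatum, the sham operation was the same without collagenase, and ICH tissue was taken 48 h later. The groups were thus Sham-Fabp4flox/flox, Sham-Fabp4CKO, ICH-Fabp4flox/flox and ICH-Fabp4CKO. Tamoxifen was given before surgery, and it is not stated whether the controls received it, nor what age these floxed animals were.

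The choroid plexus hangs in the brain ventricles and makes cerebrospinal fluid. Its epithelial cells move sodium, chloride, bicarbonate, potassium and water from blood to ventricle, carry vitamins and hormones into the fluid, and are joined by tight junctions that set what may leak between them. Transthyretin is its best known secreted product and is made by few other cells of the brain. The striatum lies beside the lateral ventricle, whose choroid plexus is therefore close to a striatal dissection.

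Estimated counts per library summed to between 15650813 and 22406216. Levels are given as CPM, the count scaled to a common library size after TMM normalization, so that 1 count was worth between 0.0454 and 0.0657 CPM. The targeted gene, Fabp4, had 46, 63 and 24 counts in ICH-Fabp4flox/flox, 5, 3 and 10 in ICH-Fabp4CKO, 2, 1 and 2 in Sham-Fabp4flox/flox and 0 in every Sham-Fabp4CKO library. The mitochondrial share of counts was 16.3% in ICH-Fabp4flox/flox replicate 1 and 7.90% to 11.9% elsewhere. The Y-linked genes Ddx3y, Eif2s3y, Kdm5d and Uty together had 1 count in ICH-Fabp4CKO replicate 1 and at least 1302 in each of the other 11 libraries. The 8 striatal projection neuron genes were expressed in every library, with a summed level between 1134 and 5310 CPM, highest for Ppp1r1b.

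Choroid plexus epithelial genes were abundant in the 3 Sham-Fabp4flox/flox libraries and scarce in the other 9. The summed level of the 10 genes was 875, 1681 and 3329 CPM in Sham-Fabp4flox/flox replicates 1, 2 and 3. Most of this was Ttr, and the 9 other genes alone gave 97.1, 185 and 348 CPM there against 29.6 to 36.5 in Sham-Fabp4CKO, 9.46 to 14.4 in ICH-Fabp4flox/flox and 13.0 to 20.0 in ICH-Fabp4CKO. With Ttr the sum was 56.0, 48.9 and 47.8 CPM in Sham-Fabp4CKO, 32.5, 30.8 and 22.5 CPM in ICH-Fabp4flox/flox, and 25.2, 26.5 and 24.7 CPM in ICH-Fabp4CKO. For 8 of the 10 genes the lowest Sham-Fabp4flox/flox library lay above all 9 others, which was true of 1.22% of the 15089 genes with enough counts. The 2 exceptions were Aqp1 and Clic6. In bulk tissue, fewer epithelial cells and less RNA per cell cannot be told apart.

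**Figure D1:**
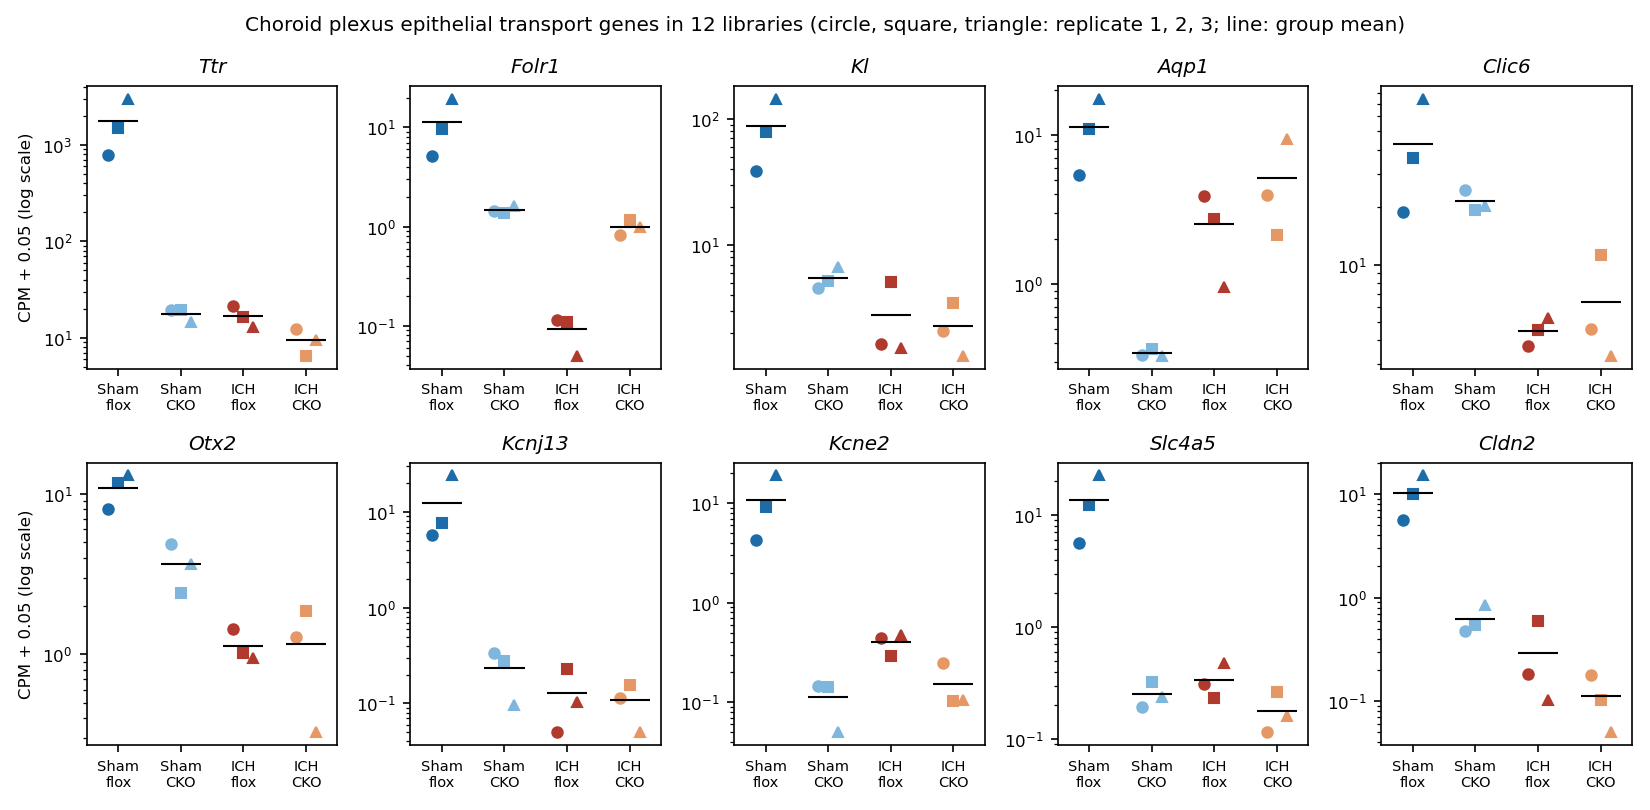
CPM plus 0.05 (log scale) of each of the 10 genes in the 12 libraries, by group, with circles, squares and triangles for replicates 1, 2 and 3 and a line at the group mean. Sham-Fabp4flox/flox stands above every other library for 8 genes, and Aqp1 and Clic6 overlap with another group.

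Among the secreted and carrier proteins, Ttr, the transthyretin gene that encodes a thyroxine and retinol carrier, dominated the counts. Its counts were 16255, 27089 and 56723 in Sham-Fabp4flox/flox, or 0.0819%, 0.154% and 0.303% of all counts. In Sham-Fabp4CKO they were 412, 425 and 308, in ICH-Fabp4flox/flox 322, 272 and 245, and in ICH-Fabp4CKO 188, 122 and 172. No library outside Sham-Fabp4flox/flox gave Ttr more than 0.00204% of its counts. The group means were 1752 ± 1124 CPM (SD, n = 3) in Sham-Fabp4flox/flox, 17.7 ± 2.86 in Sham-Fabp4CKO, 16.9 ± 4.08 in ICH-Fabp4flox/flox and 9.43 ± 2.88 in ICH-Fabp4CKO. The Sham-Fabp4CKO and ICH-Fabp4flox/flox ranges overlapped, and the ICH-Fabp4CKO libraries lay below both.

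Kl encodes klotho, a membrane and shed protein that serves as a co-receptor for FGF23. It had 811, 1412 and 2736 counts in Sham-Fabp4flox/flox, 96, 114 and 141 in Sham-Fabp4CKO, 24, 84 and 28 in ICH-Fabp4flox/flox and 31, 64 and 23 in ICH-Fabp4CKO. Mean levels were 86.9 ± 53.0, 5.44 ± 1.06, 2.71 ± 2.05 and 2.24 ± 1.08 CPM in that order (SD, n = 3). The Sham-Fabp4flox/flox libraries were apart from the rest, while ICH-Fabp4flox/flox overlapped with its neighbours on either side.

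Folr1 encodes folate receptor alpha, through which the choroid plexus passes folate into cerebrospinal fluid, and it followed a pattern of its own. It had 107, 172 and 368 counts in Sham-Fabp4flox/flox, 29, 29 and 33 in Sham-Fabp4CKO, 12, 21 and 17 in ICH-Fabp4CKO, and 1, 1 and 0 in ICH-Fabp4flox/flox. None of the 4 groups overlapped. Folr1 was thus detected in all 6 Fabp4CKO libraries and nearly missing from ICH-Fabp4flox/flox, where Ttr was still counted at 245 or more. The annotated gene Anapc15 overlaps Folr1 on the opposite strand, and the counting is not stated to use strand. Anapc15 itself was even, with 285 to 398 counts in ICH-Fabp4flox/flox and 283 to 331 in ICH-Fabp4CKO.

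Of the ion transporters and channels, Slc4a5, Kcnj13 and Kcne2 were close to a switch between Sham-Fabp4flox/flox and everything else. Slc4a5, a sodium bicarbonate cotransporter of the epithelium, had 117, 223 and 429 counts in Sham-Fabp4flox/flox and between 1 and 8 in each of the other 9 libraries. Kcnj13, an inwardly rectifying potassium channel, had 118, 137 and 460 counts against 0 to 6. Kcne2, a potassium channel accessory subunit, had 88, 166 and 361 counts against 0 to 8. Kcnj13 lies within Gigyf2 on the opposite strand, and Gigyf2 was counted in every library, 822 to 891 times in Sham-Fabp4flox/flox and 558 to 1142 times elsewhere. The Gigyf2 counts are for the whole gene, the counting is not stated to use strand, and coverage at Kcnj13 itself was not tested.

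Cldn2, a tight junction claudin that forms a pore for cations and water, had 116, 180 and 288 counts in Sham-Fabp4flox/flox. It had 9, 11 and 17 in Sham-Fabp4CKO, 2, 9 and 1 in ICH-Fabp4flox/flox and 2, 1 and 0 in ICH-Fabp4CKO. The sham groups did not overlap, and the ICH groups overlapped with each other.

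Clic6, of the chloride intracellular channel family, did not separate the sham groups. It had 395, 655 and 1409 counts in Sham-Fabp4flox/flox and 519, 427 and 434 in Sham-Fabp4CKO, which are 18.9 to 74.0 and 19.4 to 24.5 CPM. It was lower in all 6 ICH libraries, with 56, 74 and 98 counts in ICH-Fabp4flox/flox and 70, 209 and 59 in ICH-Fabp4CKO. Its mean was 43.0 ± 28.2 and 21.4 ± 2.75 CPM in the sham groups against 4.45 ± 0.765 and 6.33 ± 4.22 CPM in ICH-Fabp4flox/flox and ICH-Fabp4CKO (SD, n = 3).

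Otx2, a homeodomain transcription factor required to form the choroid plexus, was intermediate in Sham-Fabp4CKO. It had 166, 212 and 247 counts in Sham-Fabp4flox/flox, 102, 52 and 77 in Sham-Fabp4CKO, 21, 16 and 17 in ICH-Fabp4flox/flox and 19, 34 and 5 in ICH-Fabp4CKO. The groups lay in 3 separate steps, with the ICH groups together on the lowest.

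Since OTX2 binds DNA, the promoters of the 10 genes were read for its core motif, TAATCC or GGATTA on the other strand. RefSeq promoters of GRCm38.p6, 250 bases before to 50 after a start, matched 7 of the 10 genes with 11 promoters. One of these 11 held the motif, an Otx2 promoter itself, against 7.06% of all 32851 promoters. It is shown with the motif in capitals beside the promoter of Kl, the most counted of the other matched genes, which has none. The first lies on the minus strand of chr14:48665060-48665359, with the motif starting 211 bases before the start, and the second on the plus strand of chr5:150952357-150952656. A match is a string of letters and not a known binding site.
Otx2: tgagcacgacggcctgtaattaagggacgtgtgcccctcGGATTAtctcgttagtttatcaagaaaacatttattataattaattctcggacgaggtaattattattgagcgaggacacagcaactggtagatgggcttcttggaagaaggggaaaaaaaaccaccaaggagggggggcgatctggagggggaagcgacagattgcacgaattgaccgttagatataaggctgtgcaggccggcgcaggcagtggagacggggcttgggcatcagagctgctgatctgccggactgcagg
Kl: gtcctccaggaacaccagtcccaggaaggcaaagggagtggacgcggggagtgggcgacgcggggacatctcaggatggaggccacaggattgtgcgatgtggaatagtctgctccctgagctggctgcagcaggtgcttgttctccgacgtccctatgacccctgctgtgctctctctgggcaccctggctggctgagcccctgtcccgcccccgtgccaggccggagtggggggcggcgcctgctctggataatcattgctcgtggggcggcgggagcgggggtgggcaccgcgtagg

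Aqp1 encodes the water channel of the apical epithelial membrane and is also a well known protein of red blood cells, vascular endothelium and lung. It had 111, 196 and 329 counts in Sham-Fabp4flox/flox and 6, 7 and 6 in Sham-Fabp4CKO. It was higher in every ICH library than in Sham-Fabp4CKO, with 58, 44 and 17 counts in ICH-Fabp4flox/flox and 60, 39 and 167 in ICH-Fabp4CKO. Mean levels were 11.1 ± 6.0, 0.294 ± 0.0203, 2.46 ± 1.46 and 5.09 ± 3.74 CPM in the order given (SD, n = 3). Only Sham-Fabp4CKO was apart from the other groups. ICH-Fabp4CKO replicate 3, at 9.27 CPM, exceeded Sham-Fabp4flox/flox replicate 1, at 5.31 CPM.

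Markers of other tissues also varied between these libraries, in part along with Aqp1. The 9 lung epithelial genes, a list added after the data were seen, summed to 41.7, 36.0 and 11.5 CPM in Sham-Fabp4flox/flox and to 0.520 to 0.890 CPM in Sham-Fabp4CKO. They summed to 49.7, 11.8 and 1.54 CPM in ICH-Fabp4flox/flox and to 40.5 to 58.9 CPM in ICH-Fabp4CKO, highest for Sftpc, the surfactant protein C gene. Sftpa1 and Sftpd were at 0 counts in every Sham-Fabp4CKO library. The ICH-Fabp4flox/flox library with the least lung RNA, replicate 3, also had the least Aqp1. Within Sham-Fabp4flox/flox the order was the opposite, with the most Aqp1 and the least lung and meningeal RNA in replicate 3. The 8 meningeal fibroblast genes summed to 1528 CPM in ICH-Fabp4CKO replicate 3, where Aqp1 was highest among ICH libraries, and to 786 and 65.1 CPM in replicates 1 and 2. Red blood cell genes summed to 17.3 to 127 CPM in Sham-Fabp4CKO and to 1125, 144 and 122 CPM in ICH-Fabp4CKO replicates 1, 2 and 3, so that the library with the most Aqp1 in that group had the least of them. The source of the lung reads, and the part of any of these markers in the Aqp1 values, was not tested.

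The 3 Sham-Fabp4flox/flox libraries differed among themselves by a similar factor for most of the genes. Ttr in replicates 2 and 3 was 1.92-fold and 3.83-fold its level in replicate 1. Folr1 differed by 1.86-fold and 3.78-fold, Kl by 2.01-fold and 3.71-fold, and Clic6 by 1.91-fold and 3.92-fold. Slc4a5 and Kcne2 were 4.03-fold and 4.51-fold higher in replicate 3, and Kcnj13 was 4.28-fold higher. Otx2 varied least, at 1.47-fold and 1.63-fold, followed by Cldn2 at 1.79-fold and 2.73-fold.

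Set against Ttr of the same library, several genes were therefore nearly constant in Sham-Fabp4flox/flox. For every 1000 Ttr reads there were 6.58, 6.35 and 6.49 reads of Folr1, 24.3, 24.2 and 24.8 of Clic6, and 49.9, 52.1 and 48.2 of Kl. The highest of these ratios exceeded the lowest by 1.04-fold, 1.03-fold and 1.08-fold. Slc4a5 gave 7.20 to 8.23 reads and Kcne2 5.41 to 6.36. Otx2 fell outside this, with 10.2 reads per 1000 Ttr reads in replicate 1 and 4.35 in replicate 3. Each ratio follows 1 pair of genes across libraries and says nothing of the genes' relative abundance.

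Outside Sham-Fabp4flox/flox the proportions were different for the better counted genes. Clic6 gave 174 to 1713 reads per 1000 Ttr reads in the other 9 libraries, Kl 74.5 to 525, Otx2 29.1 to 279 and Aqp1 14.6 to 971, all 9 above the Sham-Fabp4flox/flox range. Folr1 lay above that range in the 6 Fabp4CKO libraries and below it in the 3 ICH-Fabp4flox/flox libraries. For Clic6 no 95% counting interval of the 9 met the Sham-Fabp4flox/flox range, for Kl and Otx2 1 did, and for Aqp1 and Folr1 3 did. The rarely counted genes had wide intervals, and an interval that meets the range cannot show that a proportion was unchanged. The interval met the range in 9 of 9 libraries for Kcnj13, in 7 for Kcne2 and Slc4a5 and in 5 for Cldn2. Cldn2 gave 21.8, 25.9 and 55.2 reads per 1000 Ttr reads in Sham-Fabp4CKO, and no interval there met its Sham-Fabp4flox/flox range.

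**Figure D2:**
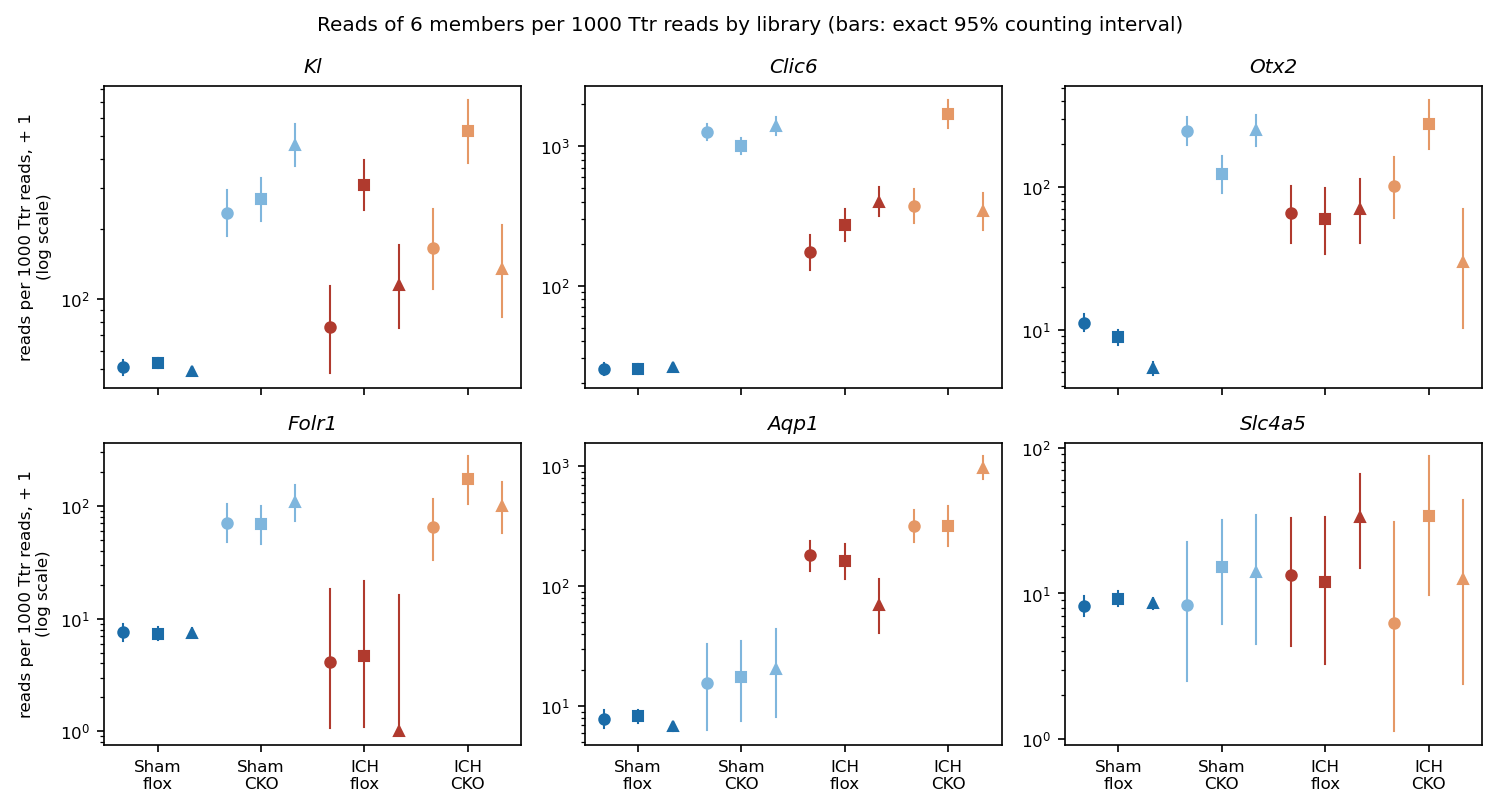
Reads of 6 genes per 1000 Ttr reads, plus 1 (log scale), in each library, with exact 95% intervals that cover counting error only. Clic6, Kl and Folr1 are level across the 3 Sham-Fabp4flox/flox libraries, at 24.2 to 24.8, 48.2 to 52.1 and 6.35 to 6.58, and scatter in the others.

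ICH was compared with sham in Fabp4flox/flox mice, which have an intact gene. The part of the hemorrhage and of the dissected tissue in these differences was not tested. All 10 genes were lower in ICH-Fabp4flox/flox by the quasi-likelihood test of edgeR (p-values adjusted by the Benjamini-Hochberg method), where 19.3% of the 14719 genes tested were lower and 26.2% higher. This contrast was among those that chose the genes, so the count carries no weight of its own. The log2 differences were -6.67 (standard error 0.59) for Ttr, -4.98 (0.66) for Kl, -5.46 (0.64) for Slc4a5 and -4.87 (0.65) for Kcne2. They were smaller for Clic6 at -3.24 (0.49), Otx2 at -3.31 (0.31) and Aqp1 at -2.17 (0.59). The median over the 10 genes was -5.17, against 0.02 over all genes tested. For Folr1 and Kcnj13 every ICH-Fabp4flox/flox library was at or under 3 counts. Their pooled levels were higher in sham by 282-fold (95% counting interval 77.7 to 2330) and 156-fold (60.6 to 573).

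The comparison of the sham groups, which share no hemorrhage, also held large differences, though not of the same size for every gene. Ttr differed by nearly as much as in the comparison above, whereas Clic6, Otx2 and Folr1 differed less and Aqp1 more. In all, 6 of the 10 genes were lower in Sham-Fabp4CKO by the same test, where 0.111% of 14395 genes were lower and 0% higher. These libraries also chose the genes, so this count too carries no weight of its own. The 6 were Ttr, Kl, Aqp1, Kcne2, Slc4a5 and Cldn2. The log2 difference was -6.63 (standard error 0.53) for Ttr, -5.21 (0.52) for Aqp1, -6.02 (0.65) for Slc4a5, -4.14 (0.44) for Cldn2 and -4.00 (0.47) for Kl. Kcnj13 differed by -6.02 (0.80), Folr1 by -3.0 (0.48), Otx2 by -1.60 (0.29) and Clic6 by -1.01 (0.42). Pooled Kcne2 was 171-fold higher in Sham-Fabp4flox/flox (95% counting interval 66.4 to 630), with Sham-Fabp4CKO at 2, 2 and 0 counts. Both comparisons use the same Sham-Fabp4flox/flox libraries, so that a high level there enters each of them. The count of 6 became 0 without Sham-Fabp4flox/flox replicate 2 or without any 1 of the Sham-Fabp4CKO libraries, 8 without Sham-Fabp4flox/flox replicate 1 and 9 without replicate 3.

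Only 16 genes in all were called between the sham groups, each of them lower in Sham-Fabp4CKO. Beside the 6 above, 6 belonged to the list of 35 other choroid plexus genes and 4 to neither. These 4, named after their values were seen, were Mfrp, Igfbp2, Scgb1a1 and Sftpa1. Mfrp had 260, 394 and 723 counts in Sham-Fabp4flox/flox and 3 to 13 in every other library. Igfbp2, an insulin-like growth factor binding protein, had 861, 832 and 1094 counts against 280, 252 and 290 in Sham-Fabp4CKO. It did not follow Ttr, since it was highest in ICH-Fabp4flox/flox, at 2603, 2818 and 2335 counts, with 556, 551 and 558 in ICH-Fabp4CKO. Scgb1a1 and Sftpa1 are lung epithelial genes of the list described above and were called in ways that did not follow Ttr, since ICH-Fabp4CKO had 291, 237 and 270 counts of Scgb1a1 and 93, 71 and 74 of Sftpa1.

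In Fabp4CKO mice, the comparison of ICH with sham involved no library with a high summed level of the 10 genes. Clic6 alone of them reached the Sham-Fabp4flox/flox range in Sham-Fabp4CKO, at 19.4 to 24.5 CPM. Of the 10 genes 6 had enough counts to be tested. By the edgeR test 3 were lower, Ttr at -0.90 (standard error 0.26), Kl at -1.26 (0.39) and Clic6 at -1.73 (0.46) on the log2 scale, and Aqp1 was higher at 4.10 (0.65). The background was 11.1% lower and 24.5% higher of 14737 genes. Since the genes were chosen on these libraries too, the 4 calls carry no weight of their own. Otx2 was at -1.67 (0.62) and Folr1 at -0.55 (0.28), and neither was called. Kcnj13, Kcne2, Slc4a5 and Cldn2 were not tested, with 0 to 17 counts in these 6 libraries. The 4 calls became 0 without any 1 Sham-Fabp4CKO library, 1 without ICH-Fabp4CKO replicate 1 or 3, and 6 without replicate 2.

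Between the ICH groups none of the 6 genes tested passed the threshold in the edgeR quasi-likelihood test, as for 0% of 14600 genes in either direction. Of them 2 had an unadjusted p under 0.05, as did 1777 of all 14600 genes. Since the genes were chosen on these libraries too, such counts carry no weight of their own. DESeq2 called 1, Folr1, as did the fit of all 12 libraries, and the DESeq2 calls over all genes are given in the closing section. Pooled Folr1 was 24.3-fold higher in ICH-Fabp4CKO (95% counting interval 6.37 to 206). Ttr differed by -0.85 (standard error 0.30), Aqp1 by 1.05 (0.70), Clic6 by 0.50 (0.48), Kl by -0.27 (0.62) and Otx2 by 0.04 (0.66) on the log2 scale. Apart from Folr1 and Ttr, these differences lay within 2 standard errors.

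**Figure D3:**
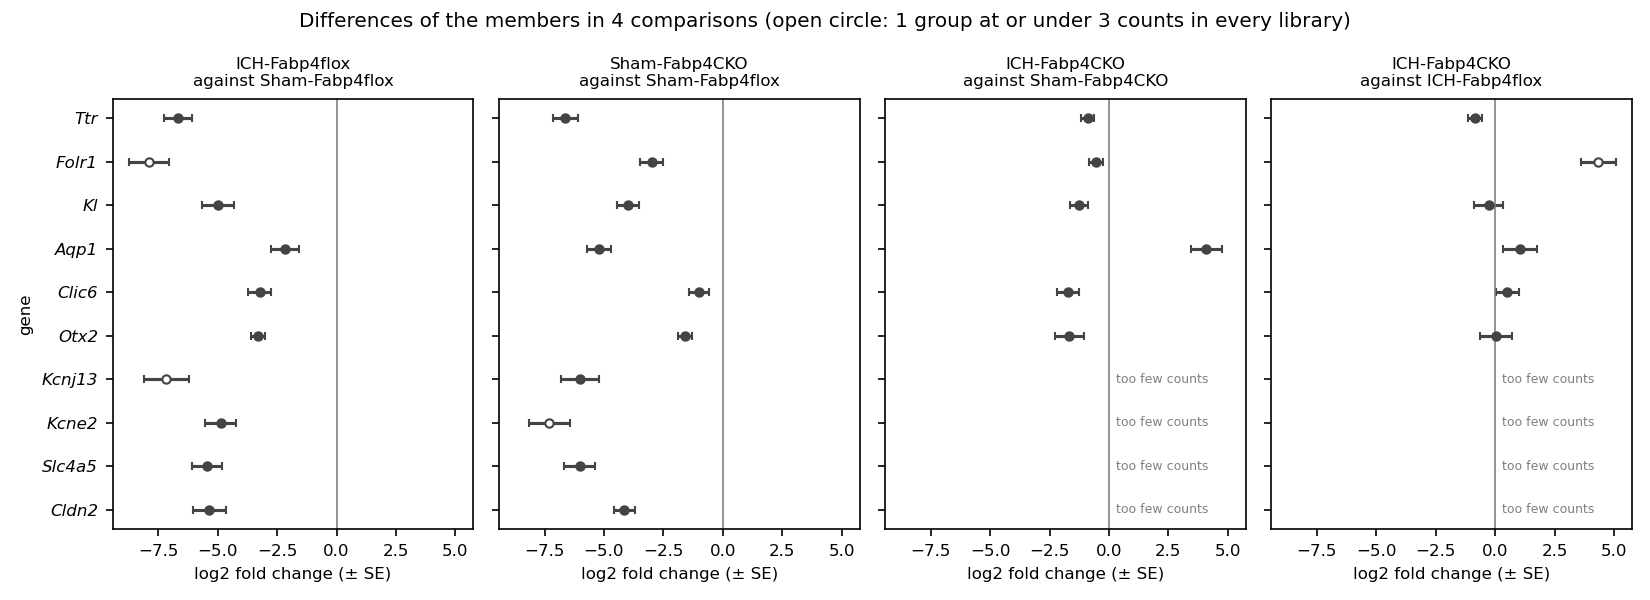
Log2 fold change with its standard error for the 10 genes in 4 comparisons. Open circles mark genes with 1 group at or under 3 counts in every library, whose fitted values depend on the model, and genes with too few counts in both groups have no point. All points lie below 0 in the first 2 panels, which share Sham-Fabp4flox/flox, and Aqp1 lies at 4.10 in the third.

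In an interaction fit over all 12 libraries, the term for a different effect of ICH between the genotypes was called for 2 of the 10 genes, Ttr and Folr1. These libraries also chose the genes, so the count carries no weight of its own. Of 15089 genes 0.0133% had a higher and 0.00663% a lower interaction term, which comes to Ttr, Folr1 and 1 further gene, Tbx1. The interaction was 5.73 (standard error 0.63) on the log2 scale for Ttr. For Folr1 the ICH-Fabp4flox/flox group was at or under 3 counts. The 2 calls were lost without Sham-Fabp4flox/flox replicate 2, any 1 Sham-Fabp4CKO library, ICH-Fabp4flox/flox replicate 2 or ICH-Fabp4CKO replicate 1 or 3, and the count became 8 among the 45 choroid plexus genes without ICH-Fabp4CKO replicate 2.

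A list of 35 other choroid plexus genes showed how far the pattern extended. In 20 of the 35 every Sham-Fabp4flox/flox library lay above the other 9, against 1.22% of the 15089 genes with enough counts. Among the 20, Lmx1a itself had too few counts to enter that share. The same held for none of the ependymal, meningeal, striatal, cortical, thalamic, red blood cell, liver, endothelial or lung genes, in that no gene of these lists lay so. Summed, the 35 genes reached 449, 579 and 783 CPM in Sham-Fabp4flox/flox, 284 to 300 in Sham-Fabp4CKO, 305 to 376 in ICH-Fabp4flox/flox and 280 to 512 in ICH-Fabp4CKO. The excess of this sum was thus smaller than for Ttr, but single genes of the list differed widely. Slc4a2 had means of 75.7 CPM in Sham-Fabp4flox/flox and 46.5 CPM in Sham-Fabp4CKO. Pooled Prr32 was 148-fold higher in Sham-Fabp4flox/flox than in Sham-Fabp4CKO (95% counting interval 40.5 to 1230). Slc4a2, a widely expressed anion exchanger, was the highest of the transporters listed, and Lmx1a, a homeodomain factor of choroid plexus development, was the lowest of the identity genes, with 7, 13 and 25 counts in Sham-Fabp4flox/flox and 0 to 4 elsewhere.

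In Fabp4flox/flox mice 23 of the 32 tested were lower after ICH and 1 was higher, against 19.3% and 26.2% of all genes, with a median log2 difference of -2.06. The list was drawn up with results of these libraries known and is not independent evidence. Sostdc1, a secreted inhibitor of BMP and Wnt signalling, fell by 6.77 on the log2 scale (standard error 0.71, Benjamini-Hochberg adjusted p = 0.000625, edgeR quasi-likelihood test). Prr32 was also called, with 51, 98 and 117 counts in sham and 1, 2 and 0 in ICH, a pooled difference of 77.3-fold (95% counting interval 26.2 to 377). By the same test Prlr, the prolactin receptor, differed by -4.32 (0.71, adjusted p = 0.0033). Ecrg4, which encodes a secreted peptide precursor of the choroid plexus, differed by -4.26 (0.84, adjusted p = 0.00657). Krt18, an epithelial keratin, differed by -3.94 (0.66, adjusted p = 0.00356) and Slc13a4, a sodium sulfate cotransporter, by -3.32 (0.37, adjusted p = 0.000733). The gene that was higher was Slc31a1, a copper transporter, at 0.95 (0.21, adjusted p = 0.0107).

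Between the sham groups 6 of 32 were lower in Sham-Fabp4CKO and none higher, against 0.111% and 0% of all genes, with a median of -1.35. They were Slc13a4, Wfdc2, Cdh3, Igf2, Prr32 and F5. Igf2, an insulin-like growth factor secreted by choroid plexus and meninges, had 1622, 1721 and 2478 counts in Sham-Fabp4flox/flox and 596, 557 and 670 in Sham-Fabp4CKO (log2 difference -1.84, standard error 0.19, Benjamini-Hochberg adjusted p = 0.0328, edgeR quasi-likelihood test). F5, coagulation factor V, had 296, 625 and 885 against 50, 30 and 60 counts (-3.87, 0.48, adjusted p = 0.0497 by the same test). Wfdc2 had 36, 29 and 38 counts against 0 in each Sham-Fabp4CKO library, at least 12.7-fold higher when each is set at the floor of 3 counts. In ICH-Fabp4flox/flox it had 7, 10 and 0 counts. The 6 calls became 0 without Sham-Fabp4flox/flox replicate 2 or any 1 Sham-Fabp4CKO library, and 24 without Sham-Fabp4flox/flox replicate 3.

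Prlr resembled Clic6 rather than Ttr. It had 167, 342 and 656 counts in Sham-Fabp4flox/flox and 280, 229 and 344 in Sham-Fabp4CKO, and 1 to 30 in the 6 ICH libraries. Car12, a carbonic anhydrase, likewise overlapped between the sham groups, at 33.2 to 102 CPM and 40.1 to 65.5 CPM, and was lower after ICH in Fabp4CKO mice (log2 difference -1.48, standard error 0.36, Benjamini-Hochberg adjusted p = 0.028, edgeR quasi-likelihood test).

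In Fabp4CKO mice 6 of 28 were higher and 5 lower after ICH, shares close to the 24.5% higher and 11.1% lower of all genes, so the counts are no result about the list. The interaction was called for none of the 32 tested by the edgeR test. An unadjusted p under 0.05 was found for 20, and for 1500 of all 15089 genes. DESeq2 called 16 for the interaction when the 10 genes and the list of 35 were counted together. In the comparison of ICH with sham in Fabp4CKO mice, the genes lower after ICH were Prlr at -3.79 (standard error 0.77, adjusted p = 0.0168, same edgeR test), Sostdc1 at -2.40 (0.45, adjusted p = 0.0139), Slc29a4 at -2.01 (0.38, adjusted p = 0.0139), Slc13a4 and Car12. Higher were Trpv4, a calcium-permeable channel, at 2.28 (0.38, adjusted p = 0.0104), Lbp, the lipopolysaccharide binding protein gene, at 1.88 (0.55, adjusted p = 0.0423), Slc31a1 at 1.58 (0.31, adjusted p = 0.0155), Slco1a5, Slc26a11 and Col9a3. Lbp was uneven, at 40.3, 11.2 and 57.2 CPM in ICH-Fabp4CKO, and highest in the same libraries as the meningeal genes. The 11 calls ranged from 0 to 17 with 1 library left out, 0 or 1 without any Sham-Fabp4CKO library, 4 without ICH-Fabp4CKO replicate 1 and 17 without replicate 2. Between the ICH groups none of 25 was called by the edgeR quasi-likelihood test. An unadjusted p under 0.05 was found for 5, and for 1777 of all 14600 genes, and DESeq2 called 3.

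Genes outside the list could be ranked by likeness to the 10. The measure was Pearson's r of log2 CPM with their mean standardized level over the 12 libraries, which share the split between 3 high and 9 low libraries, so r mainly records that split. Closest were Mfrp (r = 0.961), Tmem72 (0.951), Prr32 (0.942), Slc2a12 (0.939), Enpp2 (0.938), Oca2 (0.933), Slc13a4 (0.922), F5 (0.901) and Slc16a8 (0.898). Tmem184a, Cldn1, Sostdc1, Drg1, Abca4 and Thsd4 followed, with 0.868 the lowest. Of these 15, 8 were on the list of other choroid plexus genes. Enpp2, which encodes the secreted lysophospholipase autotaxin, had 604, 961 and 1454 CPM in Sham-Fabp4flox/flox and 181 to 398 CPM elsewhere. Drg1 entered with a narrow range, 57.8 to 72.1 CPM over all libraries.

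Most like Ttr alone were Mfrp, Slc4a5, Kcnj13, Kcne2 and Prr32 (r = 0.983 to 0.964). Most like Aqp1 were Wfdc2, Cab39l, Igf2, Serinc2 and Slc34a2 (r = 0.935 to 0.878), none of them shared with the Ttr group. Slc34a2, a phosphate transporter of lung alveolar cells, had 0 counts in every Sham-Fabp4CKO library and 30 to 39 in ICH-Fabp4CKO. Over the 45 pairs among the 10 genes, r had a median of 0.825 and a range of 0.0230 to 0.983.

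The tissue around the choroid plexus also differed between libraries. Ependymal genes, which mark the ciliated lining of the ventricle, summed to 55.0 to 89.3 CPM in Sham-Fabp4flox/flox and 80.9 to 105 CPM in Sham-Fabp4CKO, with a median log2 difference of 0.44 over the 10 genes. They summed to 37.4 to 60.3 CPM in ICH-Fabp4flox/flox and 57.9 to 73.3 CPM in ICH-Fabp4CKO. After ICH in Fabp4flox/flox mice 5 of the 10 were lower and 1 higher, against 19.3% and 26.2% of all genes. Their median log2 difference was -1.92. Most of the sum in ICH-Fabp4flox/flox was Foxj1, at 22.8 CPM, and Rarres2, the gene that was higher, at 23.6 CPM. Cilia genes were low there, such as Hydin at 0.599 CPM against 7.07 CPM in sham and Ccdc153 at 1.20 against 10.3 CPM. Between the sham groups the summed ependymal levels overlapped. The summed levels of the 10 choroid plexus genes did not, but those genes were chosen because they stood apart between the groups.

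Regional neuronal genes varied within Sham-Fabp4flox/flox. Thalamic genes summed to 1239, 868 and 225 CPM in replicates 1, 2 and 3, striatal genes to 1418, 1659 and 4505 CPM and cortical genes to 431, 607 and 183 CPM. Replicate 3, with the most choroid plexus RNA, thus had the most striatal and the least thalamic RNA. Sham-Fabp4CKO lay at 228 to 387 CPM for thalamic, 3041 to 5310 CPM for striatal and 200 to 254 CPM for cortical genes. The thalamic and cortical values lay within the range of Sham-Fabp4flox/flox, and 1 striatal value lay above it. Endothelial genes were level between the sham groups, at 132 to 137 and 126 to 134 CPM, and liver genes reached no more than 3.61 CPM in any library. Meningeal genes summed to 35.5 to 67.0 CPM in Sham-Fabp4flox/flox and 22.5 to 26.8 CPM in Sham-Fabp4CKO. The part of the dissected region in the choroid plexus values was not tested.

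**Figure D4:**
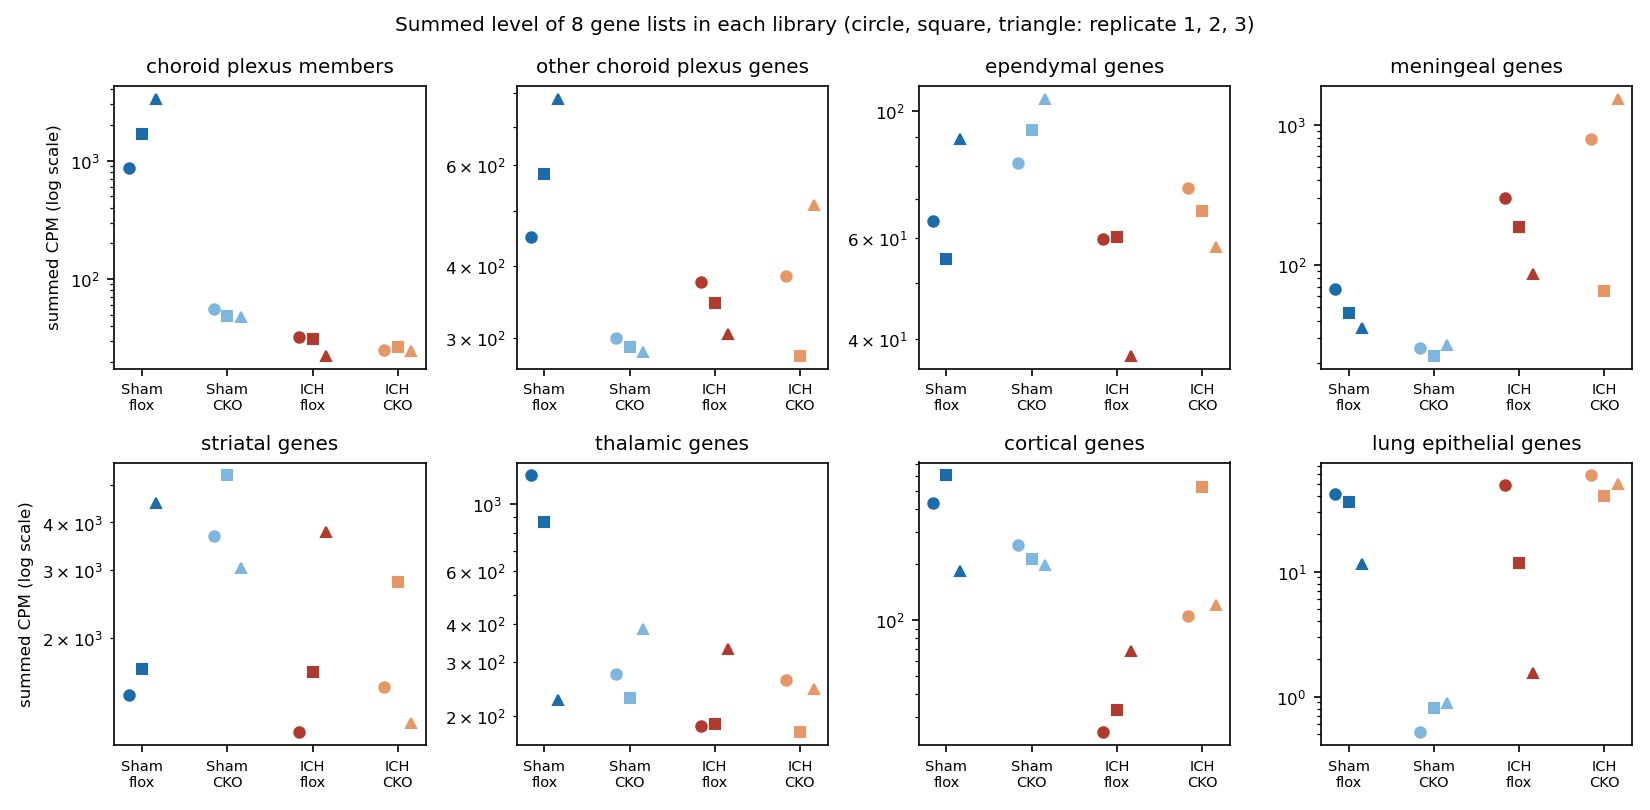
Summed CPM (log scale) of 8 gene lists in each of the 12 libraries, with circles, squares and triangles for replicates 1, 2 and 3. Choroid plexus genes are at 875 to 3329 CPM in Sham-Fabp4flox/flox and at most 56.0 CPM elsewhere, while thalamic and striatal genes order the Sham-Fabp4flox/flox libraries in opposite ways and lung genes are near 0 in Sham-Fabp4CKO.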

How the data were processed

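RNA-seq of poly(A)-selected RNA gave 1 table for all 12 libraries, which the authors deposited as estimated counts (expected counts) per gene, not normalized, with 7.36% to 8.69% of values not whole. The submitters' processing notes list Bowtie2 2.2.8, HISAT2, StringTie 1.3.1 and DESeq2, without roles, and the genome build is not given in the sources used here. Counts were rounded to whole numbers. Groups came from the sample titles. The 3 ICH-Fabp4flox/flox titles carry a further -1 after the replicate number, whose meaning is not stated, and it cannot be told apart from that group. Where nothing states that libraries are separate animals, p-values measure only the spread between these samples. No 2 libraries held the same values.

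Comparisons used edgeR 4.0.16 in R 4.3.3, with TMM normalization, filterByExpr (minimum count 10, minimum total 15), the quasi-likelihood test and Benjamini-Hochberg adjustment at 0.05, on the 6 libraries compared or on all 12 for the interaction. The standard error of an edgeR log2 difference was its absolute value divided by the square root of the quasi-likelihood F statistic. It was derived from the test and not estimated separately. Members that a filter left out were given as counts. CPM and log2 CPM (prior count 2) came from TMM over all 12 libraries. A group at or under 3 counts in every library was treated as at the floor, and intervals there are exact 95% counting intervals, which cover counting error only. The procedure was tested on simulated data.

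The members and lists were chosen with earlier results of these data known. Named were all 10 members; of the other choroid plexus lists, at most 6 genes per direction and comparison past the threshold; and the 15 genes most like the members, 5 most like Ttr and 5 most like Aqp1. Other genes named, and the lung list, were chosen after their values were seen. Promoters came from the RefSeq table and gene overlaps from GENCODE M21, neither of them known to match the build of the counts.

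The alternatives were relative log expression normalization, no low-count filter, DESeq2 1.42.0, a replicate block, all 12 libraries in one fit, CPM without TMM, and each library left out. Same-numbered libraries did not deviate together in every pair of any comparison, so the numbers were not taken to pair the samples. Further tools were Python 3.11.15, scipy 1.17.1, pandas 2.3.3 and matplotlib 3.10.9. Gene annotation columns of the table were not used beyond symbols.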

Additional observations from a re-analysis of the deposited data

Results flagged for a closer look

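The effect of ICH against sham differed between Fabp4CKO and Fabp4flox/flox mice for Ttr and Folr1, by the interaction term of the fit over 12 libraries. The term, Fabp4CKO minus Fabp4flox/flox, was 5.73 on the log2 scale for Ttr and 7.33 for Folr1. The Folr1 term is a fitted value that rests on a group at or under 3 counts in every library (1, 1 and 0 in ICH-Fabp4flox/flox) and is no bound. For Ttr the sham means were 1752 CPM in Fabp4flox/flox and 17.7 CPM in Fabp4CKO, whereas the ICH means were 16.9 and 9.43 CPM. Both genes were chosen from these libraries, and the terms are given as a description. Groups of 3 were too small for a test of single outlying libraries.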

How the results depend on the processing

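No value changed sign among those called. The 10 members lower in ICH-Fabp4flox/flox against Sham-Fabp4flox/flox became 9 at the lowest, and the other choroid plexus genes kept a count within 1.5 times of 24. Leaving out 1 library gave 0 to 9 members and 0 to 24 other genes between the sham groups (6 and 6 with all libraries), 0 to 6 members and 0 to 17 other genes for ICH against sham in Fabp4CKO mice (4 and 11), and 0 to 8 genes for the interaction (2). DESeq2 called 1 member and 3 other genes between the ICH groups, 23 other genes between the sham groups and 16 genes for the interaction. With all 12 libraries in one fit, 1 member and 1 other gene were called between the ICH groups and 3 other genes between the sham groups. Over all genes the calls between the sham groups numbered 16, with 149 by DESeq2 and 2862 without Sham-Fabp4flox/flox replicate 3, and DESeq2 called 524 between the ICH groups where edgeR called 0.

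With the replicate block 2 other genes were called between the sham groups, 2 members for ICH against sham in Fabp4CKO mice, and 0 genes for the interaction. Correlations of same-numbered libraries ranged from -0.575 to 0.311, so the shared number is not taken as a pairing. Another normalization and the absence of a low-count filter kept these counts within 1.5 times. The cause of these shifts was not tested. With 3 libraries a group, the counts of 0 to 3 for Kcnj13 in both ICH groups and for Kcne2 in both Fabp4CKO groups could show no difference between those groups at this depth.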
